A study of Homo sapiens with 29 samples.

Results

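The regions described here are 3222 stretches of chromatin with anti-Kcr signal that lie at the starts of genes with little or no RNA. Kcr is lysine crotonylation, an acyl mark, and each region comes from the list of 49916 regions that the authors deposited for chromatin immunoprecipitation with sequencing (ChIP-seq) in HCT116 cells. A region was taken when it was shorter than 10 kb, overlapped the window of 2 kb either side of at least 1 gene start, and touched only windows of silent genes. A gene was called silent when its mean log2 RPM, a read count scaled to the depth of its library, over the 4 RNA libraries of untreated non-targeting siRNA cells was under -2, which is 0.25 RPM. The regions are 6.45% of all regions and 26.3% of the 12263 regions under 10 kb that touch a gene start. They touch the starts of 3022 of the 21148 silent genes. Because the rule used the RNA of the untreated non-targeting siRNA libraries, that RNA is given only as a description, and no test below compares the RNA of these genes with those libraries.

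HCT116 is a line of human colorectal carcinoma cells with an epithelial origin, and all samples come from this line. The groups received 35 nM siRNA against DAXX or 25 nM non-targeting siRNA, each without or with 10 mM crotonate (crotonic acid). The time with crotonate is recorded as 18 h in the design text and as 48 h in the protocol of each sample. The dose of siRNA differs between the arms, so effects of DAXX siRNA and of siRNA dose cannot be told apart. RNA was sequenced from 4 libraries per group. Anti-Kcr ChIP-seq has libraries 1A, 1B, 2 and 3 without crotonate and libraries 2 and 3 with crotonate in each siRNA arm, plus 1 input library of unselected chromatin. The labels give this input as cells with 35 nM DAXX siRNA and no crotonate, and it is the divisor of every level over input below, also of those in non-targeting cells. The labels do not say whether the libraries came from separate cultures, so the p-values below measure only the spread between libraries.

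Over the whole table the ChIP libraries held 2226835 to 3639130 reads in regions, the input 1719179, and the RNA libraries 35003617 to 55128007 reads in genes. Libraries 1A and 1B of the non-targeting group agreed within sampling noise over regions (chi-squared per degree of freedom 1.007, p = 0.132), and those of the DAXX siRNA group nearly so (1.012, p = 0.0251), where other pairs of libraries gave 1.035 to 1.383. Each such pair was counted as 1 sample. Both crotonate libraries numbered 3 stand apart in ChIP, with the lowest median signal over input of the 12.

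Crotonylation is written on histone lysines from crotonyl-CoA by acetyltransferases such as p300 and removed by histone deacetylases. It is read by YEATS domains and by double PHD finger domains, and free crotonate added to a culture can raise the crotonyl-CoA supply. The mark is known chiefly from promoters and enhancers of active genes. DAXX is a chaperone that places the histone variant H3.3 in chromatin with ATRX, at telomeric and other repetitive sequence among other places, and is also known as a transcriptional corepressor. A pan-Kcr antibody such as the one used here reads crotonyl-lysine on any histone or other chromatin protein, so the site of the mark is not resolved.

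The promoters under these regions were of 2 kinds, poor and rich in CpG, and 6 are printed to show both. The sequences are RefSeq promoter windows of GRCh38.p14, from 250 bases before to 50 bases after the RefSeq start, read 5′ to 3′ on the strand of the gene, and capitals mark each CpG. All 300 bases of each window lie inside a region of the set. The first 3 are CpG-poor. They belong to CCL19 (chr9:34691227-34691526, minus strand), a chemokine that draws lymphocytes and dendritic cells to lymph nodes, to APOC1 (chr19:44914422-44914721, plus strand), an apolipoprotein, and to KRT5 (chr12:52520345-52520644, minus strand), a keratin of basal cells in stratified epithelium.
CCL19: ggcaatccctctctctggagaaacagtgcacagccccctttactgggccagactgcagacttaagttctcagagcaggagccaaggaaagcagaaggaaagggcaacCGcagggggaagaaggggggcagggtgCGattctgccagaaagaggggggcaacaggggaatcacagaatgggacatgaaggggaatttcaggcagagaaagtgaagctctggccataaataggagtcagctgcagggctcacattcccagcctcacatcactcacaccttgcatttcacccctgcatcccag
APOC1: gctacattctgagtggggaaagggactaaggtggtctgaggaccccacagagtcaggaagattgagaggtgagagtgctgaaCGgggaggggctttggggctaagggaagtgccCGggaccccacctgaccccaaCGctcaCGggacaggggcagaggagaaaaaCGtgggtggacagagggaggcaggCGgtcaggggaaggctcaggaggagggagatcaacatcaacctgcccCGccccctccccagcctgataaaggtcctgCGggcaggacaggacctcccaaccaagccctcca
KRT5: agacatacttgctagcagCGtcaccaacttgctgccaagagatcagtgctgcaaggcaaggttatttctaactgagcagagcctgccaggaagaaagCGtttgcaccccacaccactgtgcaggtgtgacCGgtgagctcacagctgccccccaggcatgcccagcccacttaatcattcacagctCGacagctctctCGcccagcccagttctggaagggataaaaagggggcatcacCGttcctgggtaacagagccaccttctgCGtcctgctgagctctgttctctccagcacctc
These windows hold 2, 8 and 7 CpG. The next 3 are CpG-rich, with 34, 35 and 27 CpG. They belong to RNF212 (chr4:1113515-1113814, minus strand), a factor of meiotic crossing over, to LRRC10B (chr11:61508499-61508798, plus strand), a protein with leucine-rich repeats, and to HOXD11 (chr2:176107030-176107329, plus strand), a homeobox factor of limb and posterior patterning.
RNF212: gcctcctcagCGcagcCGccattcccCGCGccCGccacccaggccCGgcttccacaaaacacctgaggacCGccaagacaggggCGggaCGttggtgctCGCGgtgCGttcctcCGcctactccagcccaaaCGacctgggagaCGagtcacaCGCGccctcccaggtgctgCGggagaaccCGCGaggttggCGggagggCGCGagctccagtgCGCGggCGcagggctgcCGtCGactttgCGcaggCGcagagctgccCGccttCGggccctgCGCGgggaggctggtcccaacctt
LRRC10B: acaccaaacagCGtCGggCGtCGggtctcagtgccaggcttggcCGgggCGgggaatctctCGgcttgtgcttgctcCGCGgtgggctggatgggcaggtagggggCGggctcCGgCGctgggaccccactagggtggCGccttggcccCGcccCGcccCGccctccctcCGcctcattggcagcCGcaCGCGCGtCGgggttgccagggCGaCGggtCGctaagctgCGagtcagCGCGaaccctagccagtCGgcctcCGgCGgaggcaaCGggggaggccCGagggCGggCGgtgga
HOXD11: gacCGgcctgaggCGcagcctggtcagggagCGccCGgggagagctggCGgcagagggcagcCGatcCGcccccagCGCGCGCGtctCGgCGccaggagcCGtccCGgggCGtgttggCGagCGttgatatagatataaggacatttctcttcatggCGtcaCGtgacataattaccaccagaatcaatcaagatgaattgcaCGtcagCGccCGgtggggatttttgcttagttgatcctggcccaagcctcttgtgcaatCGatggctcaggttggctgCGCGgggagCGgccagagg
CCL19 and APOC1 are among the 10 regions with the highest signal over input at genes with an official symbol. RNF212 and LRRC10B are among those with the smallest p-values for crotonate, and HOXD11 is among the genes whose RNA was higher with crotonate.

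Of the 3022 silent genes at these regions, 942 (31.2%) have an entry in the promoter table, so the following shares describe that minority only. A promoter was called CpG-rich when its observed over expected CpG was at least 0.6 and its GC content at least 50%. By that measure 31.6% of the promoters with an entry were CpG-rich, against 23.5% of the promoters of silent genes that have no region and 88.4% of those of highly expressed genes that have a region. Highly expressed here means at least 5 log2 RPM, or 32 RPM. The median observed over expected CpG was 0.373 for the silent genes with a region, 0.286 for the silent genes without any region and 0.881 for the highly expressed genes with a region. Promoters of silent genes with a region therefore lay between the other two classes and nearer to the other silent genes. A region need only touch the 2 kb window, so not all of the 942 promoter windows lie in a region. The 577 that overlap a region of the set were CpG-rich in 34.7%, with a median observed over expected CpG of 0.409. Short sequence motifs were counted on both strands. TATAAA, the core of a TATA box, was present in 12% of the promoters of the set and in 12% of all 27305 promoters in the table. GGGCGG, a GC box, was in 41.0% of the set and 44.6% of all promoters, and CCAAT was in 31.0% and 35.7%. CACGTG, an E-box, was in 6.79% and 7.43%, and TGACTCA, an AP-1 site, was in 6.48% and 4.92%. In the 577 windows that overlap a region these motifs, in the same order, were in 11.1%, 45.6%, 28.2%, 7.45% and 6.24%. GGGCGG overlaps CpG by construction. Silent genes without a region held TATAAA in 19% and GGGCGG in 25.4% of their promoters. The motif counts are a description of letters in these windows.

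**Figure D1:**
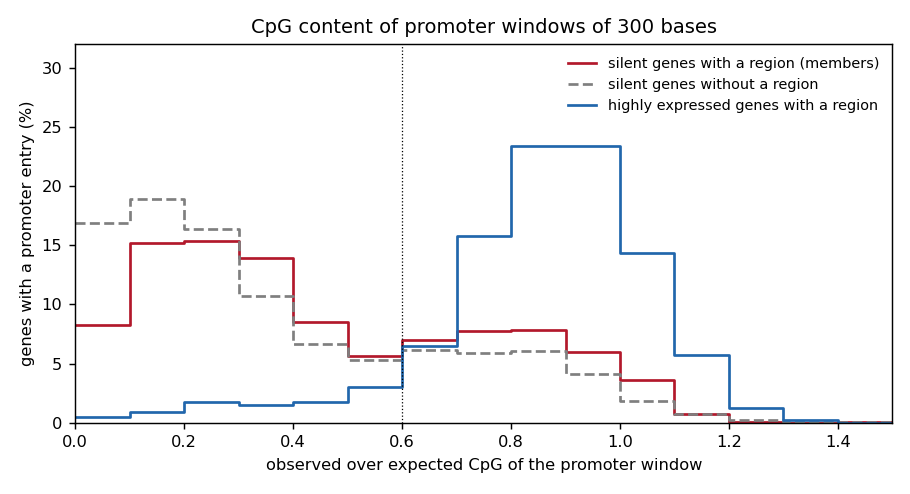
Distribution of observed over expected CpG in promoter windows of 300 bases, as the percentage of genes with a promoter entry in each bin of 0.1, for silent genes with a region (red), silent genes without a region (grey, dashed) and highly expressed genes with a region (blue). The dotted line is at 0.6. The red line follows the grey line more than the blue line, with medians of 0.373, 0.286 and 0.881.

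Most silent genes had no anti-Kcr region at their start. A region of any length lay at the start of 4893 silent genes (23.1%) and at the start of 5305 of 6565 highly expressed genes (80.8%). The other 1871 silent genes with a region shared it with a gene that is not silent, or the region was 10 kb or longer. Among genes under -5.3 log2 RPM, which had no or almost no reads, 16.3% had a region. The share was larger at each step of RNA level, at 42.0% from -5.3 to -4, 47.4% from -4 to -2 and 88.7% at 8 log2 RPM and above. No read was counted in any of the 16 RNA libraries for 817 of the 3022 genes (27.0%), against 9428 of the 16255 silent genes without a region (58.0%). The rule did not use the DAXX siRNA libraries, and there 49.5% of the genes of the set had a read against 25.0% of the silent genes without a region. In bulk RNA, fewer expressing cells and less RNA per cell cannot be told apart.

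**Figure D2:**
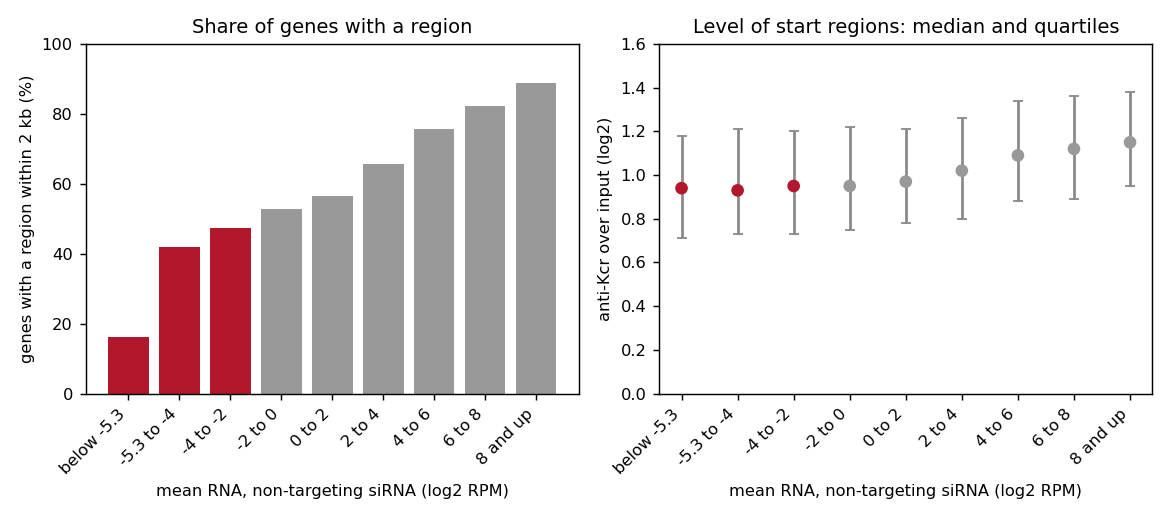
Genes in 9 bins of mean RNA in non-targeting siRNA cells (log2 RPM), with the 3 silent bins in red. Left, the percentage of genes with an anti-Kcr region within 2 kb of the start, from 16.3% to 88.7%. Right, the anti-Kcr signal over input (log2) of start regions under 10 kb by the highest RNA at the start, as median (point) and quartiles (bars), from 0.93 to 1.15.

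Where a region was present, its level at silent starts was below that at highly expressed starts, with quartiles that overlapped. The anti-Kcr level of a region is given as log2 of the authors' scaled reads over the input library, as the mean of the non-targeting siRNA libraries without crotonate, with 1A and 1B averaged into 1 sample. The median was 0.94 (1.92-fold over input, quartiles 0.72 and 1.19) at the starts of silent genes, 1.11 (2.17-fold, quartiles 0.89 and 1.36) at the 4653 starts of highly expressed genes and 0.95 (1.93-fold) at the 35215 regions under 10 kb that touch no start window. Among these 3 classes, the median at silent starts was nearest to that of regions away from starts. Regions of 1500 to 3000 bp gave 0.91, 1.13 and 0.87, so the order of silent and highly expressed starts was the same at like length. Per kilobase, the medians were 19.5, 23.8 and 19 scaled reads, with 10.4, 11.1 and 9.88 in the input. The medians in the 3 silent bins of RNA were 0.94, 0.93 and 0.95. The RNA that sets these bins also chose the members and rests on few or no reads, so these medians are a description. Start regions of genes that are not silent gave 0.95 from -2 to 0 log2 RPM and 0.97 from 0 to 2. The level was thus not particular to silent starts. In all, 3217 of the 3222 regions were above the input and 43.0% were at least 2-fold above it, against 63.0% of highly expressed starts and 46.9% of all regions. The regions were called from these libraries, so signal above input is a property of the list.

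The median of the silent starts was below that of the highly expressed starts in 10 of 12 libraries. Libraries 1A and 1B, averaged into 1 sample in the tests, are counted singly here. The median of the silent starts minus that of the highly expressed starts was -0.21, -0.21, -0.19 and -0.12 in the non-targeting siRNA libraries 1A, 1B, 2 and 3. It was -0.22, -0.18, -0.37 and -0.13 in the same libraries with DAXX siRNA. With crotonate it was -0.03 and 0.08 in libraries 2 and 3 of the non-targeting arm and -0.18 and 0.09 in those of the DAXX siRNA arm. The 2 exceptions are both crotonate libraries numbered 3, which also had the lowest medians over all regions, 0.73 and 0.75, where the others ranged from 0.86 to 1.13. The set took 5.25% to 5.72% of the reads in regions in every ChIP library, and 5.57% in the input.

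**Figure D3:**
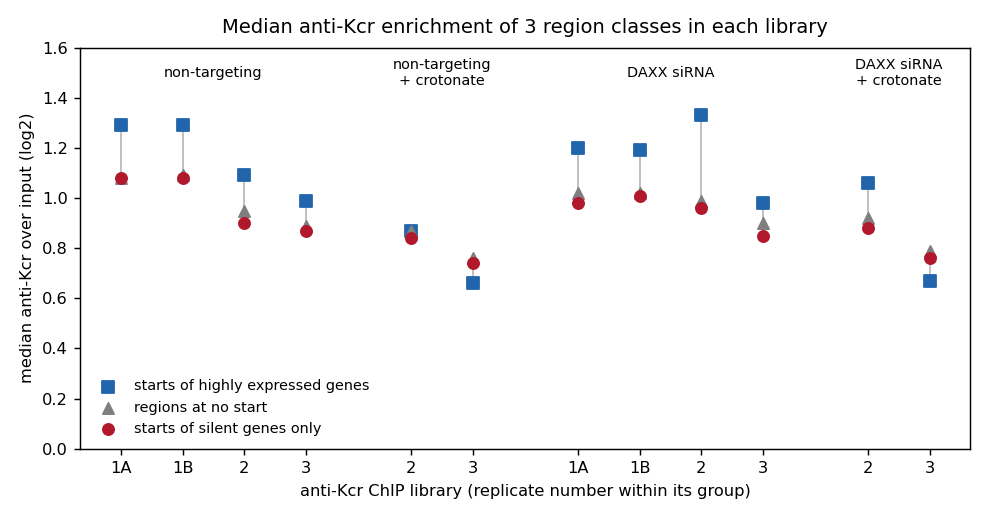
Median anti-Kcr signal over input (log2) in each of the 12 anti-Kcr libraries for starts of silent genes only (red circles), starts of highly expressed genes (blue squares) and regions at no start (grey triangles). Blue lies above red in 10 libraries and below it in both crotonate libraries numbered 3.

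The regions were moderate in size and spread over the genome. Their length ran from 300 to 9900 bp with a median of 2100 bp, against 1800 bp for all regions and 3000 bp for highly expressed starts. The start itself was covered by 1662 regions, whose median level was 0.92. Another 765 lay only upstream of the nearest start (0.98) and 795 only downstream (0.96). A single start window was touched by 2912 regions, 2 by 286 and 3 or more by 24. In 833 regions (25.9%) the region overlapped the body of a gene with at least 1 RPM, against 58.5% of all regions. The rule left out regions at the starts of such genes, and all regions include them. A lower share in the set is therefore in part fixed by the rule. The median level of the 833 regions was 0.95, and that of the other regions of the set was 0.94. The median distance to the nearest start of a gene with at least 1 RPM was 46038 bp. The level showed no trend with that distance: it was 0.95 under 5 kb, 0.94 from 5 to 20 kb, 0.92 from 20 to 100 kb and 0.97 at 100 kb or more. Chromosome 21 had the largest share of its regions in the set, 61 of 544 (11.2%), and chromosome X the lowest share among chromosomes with regions, 25 of 624 (4.01%). CpG-rich and CpG-poor promoters had like levels, with medians of 0.96 over 313 regions and 0.93 over 697.

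Families of silent genes were compared by how many of their starts carried a region of the set. The share over all silent genes was 14.3%, and the family counts are descriptions with no test. Developmental transcription factors gave 48 of 144 silent genes (33.3%). ASCL2 (chr11:2269951-2272800), a basic helix-loop-helix factor of intestinal stem cells, had their highest density at 24.4 scaled reads per kb. HOX genes gave 5 of 10, led by the region shared by HOXC11 and the antisense RNA HOTAIR at 22.1 scaled reads per kb. Keratins and keratin-associated proteins gave 26 of 133 (19.5%), led by KRT5 at 23.8. Ion channels and transmitter receptors, at 22 of 152 (14.5%), were near the share of all silent genes. Replication-dependent histone genes gave 13 of 48 (27.1%), and their regions had the highest median level of the families, 1.29 over 13 regions. HIST1H4H (chr6:26284051-26286600), a histone H4 gene, held 29.6 scaled reads per kb there. Most transcripts of replication-dependent histone genes carry no poly(A) tail, and the labels call the RNA libraries mRNA-seq without naming the selection, and whether their RNA was captured was not tested.

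Other families had few regions of the set. Olfactory and taste receptors gave 7 of 396 silent genes (1.77%) and zinc finger genes 6 of 145 (4.14%). No silent cancer-testis gene of 112, such as the MAGE and GAGE families, and no silent clustered protocadherin of 16 had a region of the set. Regions of any length or shared with other genes added 1 cancer-testis gene and no protocadherin. Several of these families hold near-identical copies, and how the authors treated reads that map to several copies is not given in the sources used here. Long non-coding and antisense genes gave 334 of 2655 (12.6%) and genes known only by a clone name 1560 of 11564 (13.5%), so clone-named genes make up 1560 of the 3022 genes of the set. By symbol, 1378 of the 3022 genes matched RefSeq, of which 997 were protein-coding and 351 long non-coding.

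The 10 regions with the highest signal over input, among those with at least 30 scaled reads, ranged from 1.94 to 2.45 log2 units. The highest was at AC138393.3, at chr1:223992451-223993800 upstream of the start. It held 39.7, 38.1 and 27.9 scaled reads in the 3 non-targeting samples against 6.35 in the input, a 5.48-fold level. A pair of neighbouring regions on chromosome 10, chr10:132516001-132518550 and chr10:132518701-132520800, lay over the start of AL451069.1 and just upstream of it and reached 4.58-fold and 4.62-fold. The region over the start of CCL19, whose promoter is printed above, spans chr9:34690651-34692450. It held 45.6, 38.1 and 26.6 scaled reads in non-targeting cells and 8.47 in the input, a 4.24-fold level, while its RNA was at -5.44 log2 RPM, the value of a gene with 0 reads in all 4 libraries. SCAANT1 (chr3:63911251-63914400), an antisense RNA at ATXN7, reached 4.08-fold (110, 105 and 85.1 scaled reads, input 24.3). FUT5 (chr19:5867251-5868900), a fucosyltransferase of Lewis antigens, reached 3.95-fold (34.9, 39.5 and 38.5, input 9.53). CGB8, APOC1 and AQP7 lie below the range of those 10 regions and are among the 10 highest at genes with an official symbol. CGB8 (chr19:49049251-49051050), a beta subunit of chorionic gonadotropin, reached 3.82-fold, and belongs to a cluster of near-identical copies whose reads may be split. APOC1 reached 3.49-fold over a region of 6300 bp (chr19:44910601-44916900) and held 215, 140 and 142 scaled reads against 46.6 in the input. AQP7 (chr9:33402001-33403650), a glycerol channel, reached 3.32-fold (48.1, 27.2 and 33.2, input 10.6). In each of these regions every non-targeting sample was above the input, and the ratio rests on the counts of a single input library.

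The 3 regions just inside had -2.012, -2.026 and -2.029 log2 RPM (AP000787.1, DBH-AS1 and ACR) and anti-Kcr levels of 1.48, 0.98 and 0.35. The 3 just outside had -1.997, -1.99 and -1.986 log2 RPM (AC090023.2, AC234582.2 and SCN4B) and levels of 0.74, 0.54 and 0.88. These values chose the members and are a description.

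The next question was whether added crotonate changed Kcr at silent starts. Differences were fitted for all 49916 regions with limma on the deposited log2 values, with 10 samples after averaging 1A and 1B, and p-values were adjusted over all regions by the Benjamini-Hochberg method. With non-targeting siRNA no region of the set passed an adjusted p of 0.05, and the share called over all regions was 0%. Limma-voom on the recovered reads also called no region of the set, while keeping 1A and 1B as separate libraries gave 5, all lower (0.155% of the set, against 0.194% of all regions). At an unadjusted p under 0.05, 14 regions of the set (0.435%) were higher and 301 (9.34%) were lower with crotonate, where the shares over all regions were 0.491% and 12.8%. The median log2 difference was -0.16 in the set, -0.19 over all regions and -0.36 at highly expressed starts, where 33.7% of regions were lower at the unadjusted threshold. On the authors' scale the medians of all classes were thus below 0, silent starts by less than highly expressed starts and by about as much as all regions. This direction depends on the scaling: centring each library on its median region shifts the differences by 0.17 and moves the median to 0.01 at the silent starts and to -0.02 over all regions. Without library 1 of the non-targeting group the medians were -0.10 and -0.13.

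The smaller difference at silent starts was present at like levels of signal. Regions of 1500 to 3000 bp were grouped by their level in the DAXX siRNA libraries without crotonate, which this comparison does not use. Where that level was under 0.6, the median difference with crotonate was -0.12 at 167 silent starts and -0.31 at 71 highly expressed starts. From 0.6 to 0.9 it was -0.14 and -0.33, and from 0.9 to 1.2 it was -0.17 and -0.39. At 1.2 and above it was -0.24 at 188 silent starts and -0.42 at 768 highly expressed starts. Regions at no start gave -0.12, -0.13, -0.16 and -0.20. The silent starts followed the regions away from starts in each group of levels. By library, the median level of the silent starts was 0.84 and 0.74 in the crotonate libraries 2 and 3, just below the 0.87 to 1.08 of the libraries without crotonate. That of the highly expressed starts was 0.87 and 0.66 against 0.99 to 1.29. With 2 crotonate samples, of which library 3 stands apart, the part of that library was measured by leaving both libraries 3 out (an alternative chosen after seeing the data): the median of the set was then -0.10, against -0.12 over all regions.

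**Figure D4:**
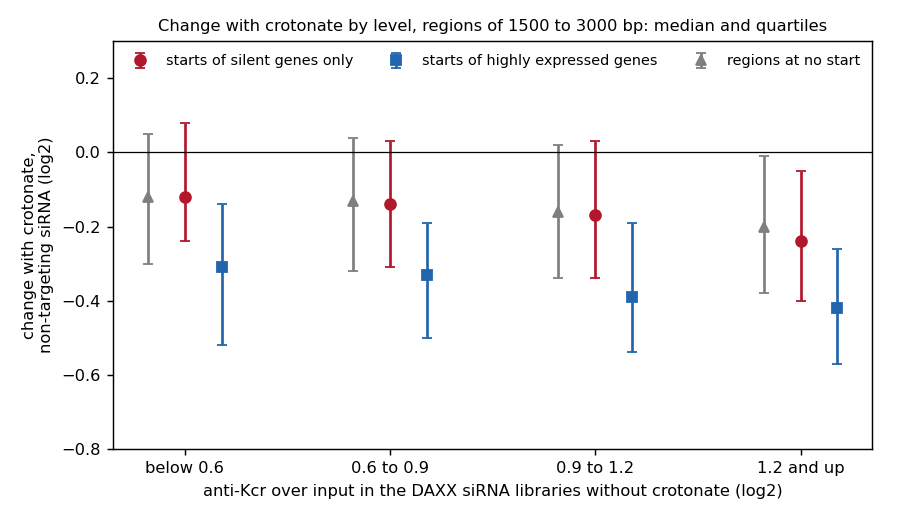
Log2 difference in anti-Kcr signal with crotonate in non-targeting siRNA cells (median and quartiles) for regions of 1500 to 3000 bp in 4 groups of signal over input (log2) in the DAXX siRNA libraries without crotonate. Starts of silent genes (red circles) run from -0.12 to -0.24, near the regions at no start (grey triangles), and starts of highly expressed genes (blue squares) from -0.31 to -0.42.

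Among single regions of genes with an official symbol, the smallest p-values for lower signal belonged to RNF212, ATP5MGL and LRRC10B, none of which passed after adjustment. At RNF212 (chr4:1113151-1113900) the 3 non-targeting samples held 20.2, 24.5 and 19.9 scaled reads and the 2 crotonate samples 6.73 and 9.07. They did not overlap, but the region was named for its small p-value in this comparison, which favours such separation. The log2 difference was -1.46 (SE 0.36, limma adjusted p = 0.185). With DAXX siRNA the samples held 13.3, 12.6 and 14.5 scaled reads without crotonate and 16.8 and 13 with it, which overlap. ATP5MGL (chr22:42640351-42642000), a gene for a protein like an ATP synthase subunit, held 29.2, 39.5 and 37.2 scaled reads without and 16.2 and 18.1 with crotonate (log2 difference -1.03, SE 0.266, limma adjusted p = 0.202). LRRC10B (chr11:61507051-61515450), a region of 8400 bp, was the best covered of the 3. It held 215, 196 and 190 scaled reads without crotonate and 141 and 124 with it (log2 difference -0.60, SE 0.165, limma adjusted p = 0.218). Its DAXX siRNA samples held 206, 199 and 169 without and 140 and 137 with crotonate, a difference of -0.46 (SE 0.165, limma adjusted p = 0.524). For higher signal the smallest p-values among such genes belonged to LINC02092, LINC01397 and DRC1. DRC1 (chr2:26401801-26402400), a component of the dynein regulatory complex of cilia, held 7.24, 5.45 and 13.3 scaled reads without and 17.5 and 15.9 with crotonate (log2 difference 1.05, SE 0.445, limma adjusted p = 0.318). LINC02092 (chr17:73781701-73789500), a long non-coding RNA gene with a region of 7800 bp, held 138, 110 and 132 without and 156 and 185 with crotonate (log2 difference 0.43, SE 0.171, limma adjusted p = 0.299).

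In DAXX siRNA cells crotonate also gave no call in the set by limma or limma-voom, and the share called over all regions was 0%. At an unadjusted p under 0.05, 19 regions of the set (0.59%) were higher and 185 (5.74%) lower, against 0.579% and 7.92% over all regions. The median difference was -0.12 in the set, -0.16 over all regions and -0.30 at highly expressed starts. The median of silent starts minus that of highly expressed starts was -0.18 in crotonate library 2 and 0.09 in library 3. In the DAXX siRNA libraries without crotonate it was -0.37 to -0.13. The contrast between these classes thus rested mostly on library 3 in this arm. Without library 3 of the crotonate group the median was -0.06 both in the set and over all regions, and with centring, a shift of 0.14, it was 0.01 and -0.02. Without library 2 of the crotonate group 9 regions of the set passed (0.279%), all lower, against 0.791% of all regions. SPATA41 (chr15:100349101-100350300), a testis-associated non-coding RNA gene, had the smallest p among genes with an official symbol, with 26.9, 37.9 and 30.3 scaled reads without and 18.0 and 11.7 with crotonate (log2 difference -1.11, SE 0.299, limma adjusted p = 0.447). TEX12 (chr11:112166701-112167750), which encodes a synaptonemal complex protein of meiosis, held 22.1, 25.3 and 18.4 scaled reads without and 8.99 and 11.7 with crotonate (log2 difference -1.08, SE 0.309, limma adjusted p = 0.515). In non-targeting cells TEX12 held 23.8, 21.8 and 21.3 without and 24.2 and 22.7 with crotonate. TBX15 (chr1:118989301-118990050), a T-box factor of skeletal development, was on the other side, with 13.3, 8.43 and 9.22 scaled reads without and 18.0 and 19.5 with crotonate.

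Knockdown of DAXX was then compared with non-targeting siRNA. DAXX RNA itself was 22.9 to 27.4 RPM with DAXX siRNA against 101 to 105 RPM with non-targeting siRNA, and 13.1 to 24.2 against 95.2 to 102 RPM in crotonate. Without crotonate limma called no region of the set (0% called over all regions), nor did limma-voom. At an unadjusted p under 0.05, 37 regions of the set (1.15%) were higher and 31 (0.962%) lower, near the 1.29% and 1.08% of all regions, and the median difference was -0.01 with a median SE of 0.22 per region. MTRNR2L8 (chr11:10509901-10511700), a nuclear copy of mitochondrial sequence whose reads may be shared with other copies, had the smallest p among regions that were higher at genes with an official symbol, with 31.0, 27.2 and 17.3 scaled reads in control and 44.5, 47.7 and 35.6 in DAXX siRNA samples. LOXHD1 (chr18:46656301-46658100), a gene of inner ear hair cells, held 23.4, 25.9 and 19.9 against 38.2, 37.9 and 32.9 (log2 difference 0.66). FOXB2 (chr9:77018101-77020050), a forkhead factor, held 48.7, 35.4 and 42.5 scaled reads in control and 31.6, 29.5 and 15.8 with DAXX siRNA (log2 difference -0.77). KRT5 (chr12:52518451-52523550) held 127, 117 and 121 in control and 104, 84.3 and 80.4 with DAXX siRNA (log2 difference -0.45, SE 0.17). The samples of these 4 regions did not overlap, and their limma adjusted p-values were all 1.0 after rounding to 3 digits. The regions were named for small p-values in this same comparison, which favours such separation, so it is no further support.

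With crotonate in both arms, limma and limma-voom called no region of the set for DAXX siRNA (0% called over all regions). The unadjusted counts were 62 regions higher (1.92%) and 59 lower (1.83%), against 2.79% and 1.38% over all regions. KISS1 (chr1:204194401-204195000), which encodes kisspeptin, had the smallest p among higher regions of genes with an official symbol, with 4.04 and 6.80 scaled reads in non-targeting and 18.0 and 14.3 in DAXX siRNA samples. TEX12 had the smallest p among lower regions and held 24.2 and 22.7 against 8.99 and 11.7. The difference between the arms in their response to crotonate, tested as an interaction, gave no call in the set by either tool (0% called over all regions), with 56 regions (1.74%) and 39 regions (1.21%) at unadjusted p under 0.05 against 1.88% and 1.21% over all regions. Among genes with an official symbol, RNF212 had the smallest interaction p on the positive side (log2 1.6, unadjusted p = 0.00363) and TEX12 the smallest on the negative side (log2 -1.16, unadjusted p = 0.0124), by limma.

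The RNA of the genes at these regions stayed low in every group. Summed over the 3022 genes it was 93.8 to 128 RPM per library with non-targeting siRNA, 147 to 186 with crotonate, 99.2 to 111 with DAXX siRNA and 138 to 156 with DAXX siRNA and crotonate. The libraries of DAXX siRNA cells with and without crotonate did not overlap in this sum. Reads of at least 10 in total over 16 libraries were counted for 1283 of the 3022 genes, and only these could be tested. The others had too few reads to test.

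Crotonate in DAXX siRNA cells, a comparison that does not use the libraries of the rule, gave 45 of the 1283 tested genes with higher RNA (3.51%) at a limma adjusted p under 0.05 and 2 with lower RNA (0.156%). Over all 22657 genes tested 9.92% were higher and 1.66% lower. The median log2 difference was 0.22 in the set and 0.06 over all genes, and the median SE was 0.68 and 0.16. A gene of the set may have passed the filter on reads through the group in which it is high, so these shares and medians are a description. Not one of the 45 reached a mean of 1 RPM with crotonate; they lay between 0.0809 and 0.965 RPM. For 35 of the 45 (77.8%), every crotonate library was above every library without it, as for 89.1% of all 2248 genes called higher. Of all genes tested, called or not, 12.1% had this order, and of those in the set 4.36%. Quantile scaling shifted the differences of all genes by -0.12 and changed the split of calls to 27 higher and 11 lower in the set, and from 2248 and 377 to 1369 and 720 over all genes. With only the DAXX siRNA groups in the fit, 39 genes of the set (3.04%) were higher and 3 (0.234%) lower. The shares over all genes were then 8.28% and 1.19%.

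The genes with the largest differences were of many kinds. P2RY6 (ENSG00000171631, chr11:73264505-73298617, plus strand), a receptor for extracellular UDP, had 0.0254, 0.0253, 0.0567 and 0.182 RPM with DAXX siRNA and 0.687, 0.366, 0.518 and 0.701 with crotonate added, without overlap. The log2 difference was 3.44 (SE 0.679, limma adjusted p = 0.00193), from 11 reads in all against 101. C2CD4A (ENSG00000198535, chr15:62066977-62070917, plus strand), a nuclear protein induced in inflammation, had 0.0761, 0.0759, 0.0284 and 0.026 RPM without and 0.931, 0.677, 0.113 and 0.742 with crotonate (log2 difference 3.40, SE 0.693, limma adjusted p = 0.00254). CCIN (ENSG00000185972, chr9:36169394-36171334, plus strand), calicin of the sperm head, had 0.0254, 0.0759, 0.0851 and 0.026 RPM without and 0.377, 0.451, 0.338 and 0.619 with crotonate (log2 difference 3.26, limma adjusted p = 0.000349). In each of these genes the crotonate libraries lay above all libraries without it. The genes were named for large called differences in this same comparison, which favours such separation, so it is no further support.

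CCDC63 (ENSG00000173093, chr12:110846769-110907535, plus strand), a coiled-coil protein of sperm flagella, was less even. Its libraries held 0.178, 0, 0.0284 and 0.026 RPM without crotonate and 0.133, 0.338, 0.563 and 0.784 RPM with it, so the groups overlap (log2 difference 3.17, limma adjusted p = 0.00948). SNAI2, a repressor of epithelial genes in epithelial to mesenchymal transition, had 0.0254, 0.0253, 0.142 and 0.182 RPM without and 0.31, 0.93, 0.653 and 0.412 RPM with crotonate (log2 difference 3.05, limma adjusted p = 0.00214). HOXD11, whose promoter is printed above, had 5 reads in library 3 and none in the other 3 libraries without crotonate. With crotonate it had 21, 4, 10 and 31 reads, or 0.465, 0.113, 0.225 and 0.639 RPM (log2 difference 3.02, limma adjusted p = 0.00807). The lowest crotonate library lies below the highest library without crotonate.

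FTCD (ENSG00000160282, chr21:46136262-46155579, minus strand), an enzyme of histidine breakdown, had 2 reads in all without crotonate and 35 with it, and its crotonate libraries were 0.177, 0.226, 0.158 and 0.247 RPM. The ratio of RPM was 15.5, with a 95% exact counting interval of 3.97 to 133 (limma adjusted p = 0.000246). SDR42E2 (ENSG00000183921, chr16:22165583-22191754, plus strand), a short-chain dehydrogenase family member, had 3 reads without and 45 with crotonate, a ratio of 13.3 with a counting interval of 4.26 to 66.7 (limma adjusted p = 0.00726). These intervals cover counting error only. For comparison, the non-targeting libraries with crotonate held FTCD at 0.336, 0.12, 0.222 and 0.291 RPM and P2RY6 at 0.202, 0.863, 0.388 and 1.3 RPM. Among the genes with the next largest differences were ALPL, tissue-nonspecific alkaline phosphatase, with 2.87, and ABCA4, a retinal transporter, with 2.75 log2 units.

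**Figure D5:**
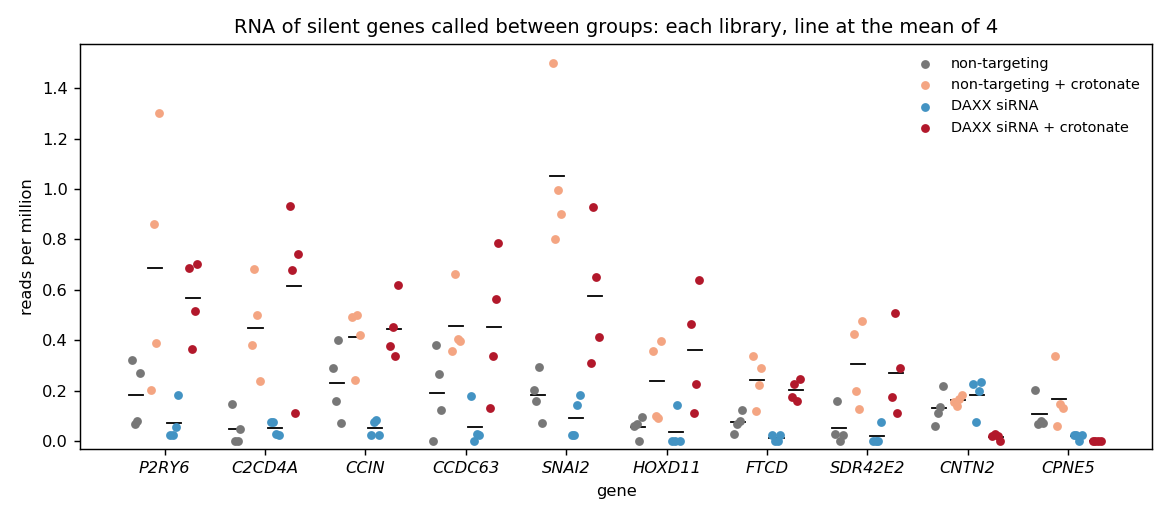
RNA of the 10 genes named by the rule in RPM, with 1 point per library and a line at the mean of 4 libraries, for non-targeting siRNA (grey), the same with crotonate (orange), DAXX siRNA (blue) and DAXX siRNA with crotonate (red). The red points lie above the blue points for most libraries of the first 8 genes, and below the orange points for CNTN2 and CPNE5.

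Markers of cell types other than colon epithelium were counted beside this result. Over 19 such markers the summed RNA was 14.7 to 22.3 RPM with DAXX siRNA and 24.8 to 34.3 RPM with crotonate added, and PECAM1, a marker of endothelium, is among the 45 genes. DCN, LUM, CD3E and HBB had no reads in either group, and 2 of the 19 markers reached 1 RPM in each. Their part in the result was not tested. Of 10 epithelial and colon markers 8 reached 1 RPM in every group, and CDX1 had no reads.

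DAXX siRNA in the presence of crotonate gave 2 genes of the set with lower RNA (0.156%, against 0.525% of all genes tested) and none with higher RNA (0.269% of all genes). At an unadjusted p under 0.05 by limma 35 genes of the set were higher and 59 lower, where the shares over all genes were 4.22% and 5.95%, and limma-voom also called none higher and 2 lower. CNTN2 (ENSG00000184144, chr1:205042937-205078289, plus strand), contactin 2 of axons, had 0.157, 0.14, 0.166 and 0.185 RPM in non-targeting cells with crotonate and 0.0222, 0.0282, 0.0225 and 0 RPM with DAXX siRNA and crotonate, without overlap. It had 3 reads in the latter group against 30, a ratio of 0.107 with a 95% exact counting interval of 0.021 to 0.345 (limma adjusted p = 0.00356). CNTN2 was named for its call in this comparison, which favours the lack of overlap. Its RNA was also lower with crotonate within DAXX siRNA cells, where the libraries without it held 0.228, 0.0759, 0.199 and 0.234 RPM (limma adjusted p = 0.000361). The other gene lower in that comparison was AC007998.3, known only by a clone name and named after its values were seen, with 6, 4, 3 and 5 reads without and 1, 2, 0 and 1 with crotonate (limma adjusted p = 0.031). CPNE5 (ENSG00000124772, chr6:36740775-36839444, minus strand), a calcium-dependent phospholipid-binding copine, had 0.336, 0.0602, 0.148 and 0.132 RPM with non-targeting siRNA and crotonate and no read in the 4 libraries with DAXX siRNA and crotonate. With 3 reads entered over that group as a floor it was 9.63-fold lower, which is not a bound. The 95% exact counting interval of the ratio was 0 to 0.136 (limma adjusted p = 0.014). The limma adjusted p was 0.0609 without library 1 of the non-targeting group with crotonate, 0.0585 with only the groups compared and 0.0604 with quantile scaling, while the fitted log2 difference was -2.34, -2.76 and -2.35 against -2.76.

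No change in anti-Kcr signal was detected at the genes whose RNA was higher. The 45 genes have 58 regions of the set, with a median level of 0.91 over input. With crotonate in DAXX siRNA cells none of the 58 was called, none was higher and 2 were lower at an unadjusted p under 0.05 by limma, and limma-voom called no region of the set. Over all regions 0% were called, and 0.579% were higher and 7.92% lower at the unadjusted threshold. The log2 differences of the 58 ran from -1.08 to 0.78 with a median of -0.03 and a median SE of 0.27, and 26 of 58 were above 0. The median over all regions was -0.16. At P2RY6 the region downstream of the start (chr11:73265401-73274250) held 173, 173 and 182 scaled reads without and 179 and 154 with crotonate. The 2 regions at HOXD11 held 62.0, 61.8 and 60.6, and 73.1, 56.2 and 67.2 scaled reads without crotonate, and 50.5 and 58.6, and 59.5 and 62.6 with it. CNTN2 (chr1:205042651-205045950), whose RNA was lower, held 67.8, 61.8 and 61.9 without and 56.2 and 54.7 scaled reads with crotonate (log2 difference -0.20, SE 0.203). The median region of the set held 28 to 42 reads per library, and with a median SE of 0.27 differences of that size on the log2 scale were not detectable at this depth.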

How the data were processed

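Anti-Kcr ChIP-seq (12 libraries and 1 input) and RNA-seq (16 libraries) of HCT116 cells were used. The deposited values are log2 values, of reads per region or of RPM. Per the submitters' processing notes, reads were trimmed with Trim Galore 0.6.5 (ChIP) or 0.6.2 (RNA) and cutadapt 2.3, aligned to GRCh38 with Bowtie2 (ChIP) or HISAT2 2.2.1 (RNA), and regions were called with MACS. The strand used for counting, the treatment of duplicated reads and how regions of single libraries were merged into 1 list are not stated in the labels, so reads of a gene and an antisense partner cannot be told apart. From the values, each deposited log2 entry is the log2 of a whole number of reads times 1 factor per library (100% whole within 0.01 reads), with 0 entered as 0.9 reads; RNA values are log2 RPM, and ChIP values are not divided by region length and have no input subtracted. Scaled reads are 2 to the power of the deposited ChIP value.

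limma 3.58.1 in R 4.3.3 was fitted to the deposited log2 values with a mean-variance trend, all 4 groups of an assay in 1 fit, and p-values adjusted over all regions or over all genes with at least 10 reads in total. Recovered reads were tested with limma-voom as an alternative; other alternatives were other scalings, filters, a replicate block and leaving out each sample. The fits were tested on simulated data. Named regions are the 10 with the highest signal over input, and the 10 highest at genes with an official symbol. Those with the 3 smallest p-values each way per comparison and the densest of each gene list are also named. Named genes are up to 8 called each way. Clone-named genes were passed over where the rule allows; ALPL, ABCA4 and PECAM1 were named after their values were seen, and not all regions and genes the rule allows are reported here. The members and gene lists were chosen with earlier results of these data known. Gene starts are those of the deposited RNA table, 1 per gene. Exons and introns were not analysed here.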

Additional observations from a re-analysis of the deposited data

Results flagged for a closer look

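Within groups of 4 RNA libraries, 6 of 40 groups of the named genes held a library far from the other 3. The cutoff flags about 1 in 20 groups of continuous values. Where the other 3 libraries all hold 0 reads or all hold 1 read, a differing library is flagged for certain. That rate therefore does not apply to these counts, and 6 of 40 cannot be set against it. CCDC63 had 0.178 RPM (7 reads) in DAXX siRNA library 1, against 0 to 0.0284 RPM in the others. CCDC63 also had 0.662 RPM in library 2 of non-targeting cells with crotonate, against 0.359 to 0.407 RPM. SDR42E2 had 0.0781 RPM in DAXX siRNA library 4 and HOXD11 0.142 RPM in DAXX siRNA library 3, where the other libraries had 0 reads. CPNE5 had 0 RPM in DAXX siRNA library 3, against 0.0253 to 0.026 RPM, which is 1 read. CPNE5 had 0.204 RPM in library 1 of the non-targeting group, against 0.0676 to 0.0802 RPM.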

How the results depend on the processing

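No region of the set was called for DAXX siRNA, with or without crotonate, or for the interaction under any alternative. For crotonate with non-targeting siRNA, calls in the set were 0, but 5 with 1A and 1B as separate libraries, 1 with only the groups compared and 9 with a replicate block, all lower, where all regions gave 97, 64 and 410. The shares in the set were 0.155%, 0.031% and 0.279%, against 0.194%, 0.128% and 0.821% of all regions. The block brought LRRC10B (limma adjusted p = 0.037) and ATP5MGL (0.0488) under 0.05. With 1 sample left out the calls were 0 to 2 (2 without crotonate library 2, and 44 over all regions). For crotonate with DAXX siRNA that range was 0 to 9. The median difference of the set with crotonate moved from -0.16 to 0.011 with centring, 0.039 with quantile scaling and 0.076 with limma-voom, and with DAXX siRNA from -0.12 to 0.012, 0.038 and 0.052.

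RNA calls for crotonate with DAXX siRNA were 47, and 28 at 0.25 RPM in at least 4 libraries, a filter that 239 genes of the set passed and CNTN2 and CPNE5 did not, 27 without a filter and 34 to 43 when 1 library was left out. For DAXX siRNA with crotonate the calls were 2, and 0 at 0.25 RPM, 4 without a filter, 1 with only the groups compared, 1 with quantile scaling and 2 to 4 with 1 library left out (4 without library 3 of DAXX siRNA with crotonate). Lower calls were 0.156% of the set and 0.525% of all genes tested. These shares were 0% and 0.668% at 0.25 RPM, and 0.0662% and 0.288% without a filter. With only the groups compared they were 0.0779% and 0.437%, and with quantile scaling 0.0779% and 0.552%. With 1 library left out they were 0.0779% to 0.312% and 0.265% to 0.463%. Without a filter 2 of the 4 calls were higher (0.0662%, against 0.168% of all genes). The CPNE5 call was lost in 3 of 13 alternatives, with a fitted log2 difference of -2.34 to -2.76. A window of 5 kb gave 4838 regions with a median level of 0.93.

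The labels do not say that replicate numbers pair samples, and the correlation of deviations was not over 0.1 for every same-numbered pair of any comparison used. It was -0.001 to 0.095 over 13 pairs in ChIP. In RNA it was 0.222, 0.087, 0.423 and 0.476 between DAXX siRNA libraries without and with crotonate. Between the siRNA arms with crotonate it was -0.029, 0.008, 0.189 and -0.002. A replicate block gave 48 and 3 RNA calls in these comparisons. In the first, 44 were higher (3.43%, against 10.8% of all genes), and in the second all 3 were lower (0.234%, against 0.64%). Depth limits single regions, and 1 input library underlies every ratio.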
